A study of Mus musculus with 20 samples.

Results

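The genes described here are 10 members of the JAK-STAT pathway and its feedback inhibitors: the kinases Jak1 and Jak2, the transcription factors Stat3, Stat5a, Stat5b and Stat6, and the suppressors of cytokine signalling Socs1, Socs2, Socs3 and Cish. They were chosen by name among the spots of the array that are not controls, and are 10 of 37,074 gene names and 18 of 56,605 probes. All 18 probes were well above background on enough arrays to be tested. Expression was measured in visceral adipose tissue (VAT) of the epididymal area of male F3 C57bl/6J mice, with 1 array of 1 colour per mouse. Ref mice (n = 6) were of the control lineage, whose growing diet was supplemented over the generations with a sunflower oil rich in oleic acid, and received a low-fat reference diet. HFoleic mice (n = 6) were of the same control lineage and received a high-fat, high-sucrose diet. HFepa mice (n = 8) were of the omega 3 lineage, supplemented with a fish oil rich in eicosapentaenoic acid (EPA), and received the same high-fat, high-sucrose diet. HFoleic vs. Ref therefore compares diets within 1 lineage, HFepa vs. HFoleic compares lineages on 1 diet, and HFepa vs. Ref differs in both. Each supplementation is represented by a single lineage, so that the oil and the lineage cannot be told apart, and whether mice of a group were littermates is not given in the sources used here.

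In this pathway a cytokine or hormone such as leptin, growth hormone, prolactin, interleukin-6 or interleukin-4 binds a receptor that has no kinase activity of its own. Janus kinases (JAK) held by the receptor phosphorylate it and then the STAT proteins, which pair, enter the nucleus and bind DNA. SOCS proteins and CISH are transcribed in response to STAT and inhibit the receptor or its kinase, which closes a feedback loop, and in adipose tissue the pathway carries signals of growth hormone and leptin in adipocytes and of interleukins in macrophages. The arrays measure RNA and give no information on phosphorylation.

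The promoter windows of 3 of the inhibitors are given, since Cish and Socs1 had lower signals in a comparison below and Socs3 is the only member whose window held one of the letter patterns searched. The windows are the 250 bases before the start of the gene (RefSeq, GRCm38.p6), for Cish on the plus strand at chr9:107296409-107296658, for Socs1 on the minus strand at chr16:10785537-10785786 and for Socs3 on the minus strand at chr11:117969367-117969616. Capitals mark TTCNNNGAA, the spacing bound by STAT3 and STAT5.
Cish: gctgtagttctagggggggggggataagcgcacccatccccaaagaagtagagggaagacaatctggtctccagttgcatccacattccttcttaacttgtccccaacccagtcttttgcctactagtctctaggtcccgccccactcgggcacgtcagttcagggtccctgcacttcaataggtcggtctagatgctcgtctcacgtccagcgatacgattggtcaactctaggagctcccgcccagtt
Socs1: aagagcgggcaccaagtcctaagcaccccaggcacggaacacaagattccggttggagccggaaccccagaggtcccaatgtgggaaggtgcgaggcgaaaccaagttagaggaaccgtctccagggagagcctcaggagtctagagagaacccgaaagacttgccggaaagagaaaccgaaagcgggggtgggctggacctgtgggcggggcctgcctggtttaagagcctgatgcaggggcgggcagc
Socs3: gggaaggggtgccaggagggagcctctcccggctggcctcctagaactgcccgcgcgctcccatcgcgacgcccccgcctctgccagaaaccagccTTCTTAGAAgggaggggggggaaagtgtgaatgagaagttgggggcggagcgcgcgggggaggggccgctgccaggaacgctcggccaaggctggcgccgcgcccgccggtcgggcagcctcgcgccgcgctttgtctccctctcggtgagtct
The match in Socs3 is TTCTTAGAA, which begins 154 bases before the start. This pattern, and the spacing preferred by STAT6 with 1 more base between TTC and GAA, read the same on both strands and can overlap. Of 32,851 windows of the same length, 7.02% held the former and 5.85% the latter. Windows of 9 of the 10 members were at hand, all but that of Socs2, and the windows of Jak1, Jak2, Stat3, Stat5a, Stat5b, Stat6, Socs1 and Cish held neither pattern, which says only that these letters are not within those bases.

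In HFoleic compared to Ref mice, 4 of the 10 genes were lower (Cish, Stat3, Socs1 and Socs2), 1 was higher (Stat6) and 5 were not called. A gene was represented by its brightest probe and called when its adjusted p was under 0.05 with limma over all 39,390 tested probes. Across the 25,618 gene names tested, 31.8% were called, 15.2% as higher and 16.7% as lower, so that 4 of 10 lower is to be set beside a high background. The median difference was -0.11 for the 10 genes and -0.04 for all gene names on the log2 scale. None of the 10 genes had groups without overlap, which was the case for 14% of the gene names. In RNA of whole tissue, fewer cells of a type and less RNA per cell cannot be told apart.

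**Figure D1:**
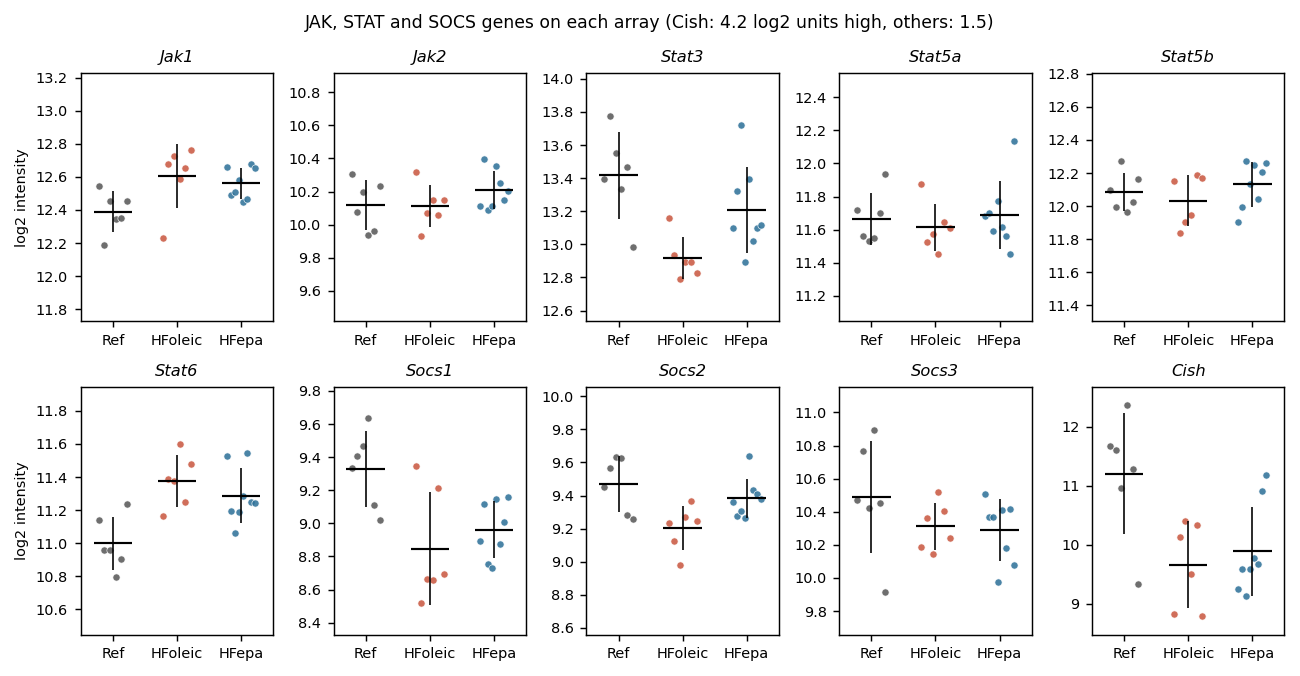
Log2 intensity (quantile normalized) of the brightest probe of each gene on the y axis, by group on the x axis; points are mice, horizontal bars group means and vertical bars SD (n = 6 Ref, 6 HFoleic and 8 HFepa). The panel of Cish has a wider scale, and its Ref mice lie at 10.96 or above except for mouse 7 at 9.35.

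Among the inhibitors, Cish had the largest difference. It encodes an SH2 protein that is induced by STAT5 and restrains signalling from receptors of growth hormone, prolactin and interleukin-2. The log2 intensity of Cish ranged from 9.35 to 12.36 in Ref mice (median 11.44), from 8.79 to 10.40 in HFoleic mice (median 9.82) and from 9.14 to 11.19 in HFepa mice (median 9.64). All HFoleic mice were below 5 of the 6 Ref mice, and Ref mouse 7 alone lay within the HFoleic range. Cish was lower in HFoleic than in Ref mice by 1.54 ± 0.45 (SE) on the log2 scale, or 2.90-fold (adjusted p = 0.0133, limma). Cish was also the member with the widest spread within each group, with an SD of 1.02 in Ref, 0.73 in HFoleic and 0.75 in HFepa mice. The size of the difference varied between the slides that carried the arrays: it was -2.59 on slide 1 (3 HFoleic and 2 Ref mice), -0.72 on slide 2 (1 and 2 mice) and -0.76 on slide 3 (2 and 2 mice). Without Ref mouse 7 the difference was -1.91 (adjusted p = 0.00157), and over all arrays left out in turn it lay between -1.91 and -1.30, with adjusted p from 0.00157 to 0.0359. With the replicate number as a block it was -1.45 and was not called (adjusted p = 0.0783).

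Socs1 encodes an inhibitor that binds JAK kinases and limits responses to interferon-gamma and interleukin-4. The log2 intensity of Socs1 was 9.02 to 9.64 in Ref mice (median 9.37), 8.52 to 9.35 in HFoleic mice (median 8.68) and 8.73 to 9.16 in HFepa mice (median 8.95). Most HFoleic mice were below all Ref mice, and 2 were within the Ref range. The signal of Socs1 fell by 0.48 ± 0.14 (SE) on the log2 scale in HFoleic vs. Ref (1.40-fold, adjusted p = 0.0120, limma). The difference was negative on each slide, at -0.47, -0.81 and -0.35 on slides 1, 2 and 3.

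Socs2, best known as the inhibitor of the growth hormone receptor, showed a smaller difference that depended on the probe. Its brightest probe gave 9.26 to 9.63 in Ref mice (median 9.51), 8.98 to 9.37 in HFoleic mice (median 9.24) and 9.26 to 9.64 in HFepa mice (median 9.37). The Ref and HFoleic ranges overlapped. With this probe Socs2 was lower by 0.27 ± 0.08 (SE) in HFoleic vs. Ref (adjusted p = 0.0188, limma), and the 3 other probes of Socs2 gave -0.21 (adjusted p = 0.0814), -0.21 (adjusted p = 0.0743) and 0.00 (adjusted p = 0.989). The mean log2 intensity of these 3 probes was 8.30, 7.51 and 6.75 in this order, against 9.36 for the brightest. With the mean of all 4 probes the difference in Socs2 was -0.17 and was not called (adjusted p = 0.0768). With the replicate number as a block it was -0.28 and was not called either (adjusted p = 0.0850).

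Socs3, the inhibitor most closely tied to STAT3 and to the leptin and interleukin-6 receptors, was not called. Its log2 intensity was 9.92 to 10.90 in Ref mice (median 10.46), 10.15 to 10.52 in HFoleic mice (median 10.30) and 9.98 to 10.51 in HFepa mice (median 10.37). The HFoleic range lay inside the Ref range. The difference in Socs3 was -0.18 (95% confidence interval -0.45 to 0.09), and without Ref mouse 7 it was -0.29 and was called (adjusted p = 0.0467), against adjusted p of up to 0.604 with other arrays left out. Ref mouse 7 had the lowest signal of the 6 Ref mice for Cish, Socs1, Socs2, Socs3 and Stat3.

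Among the transcription factors, Stat3 was lower and Stat6 higher in HFoleic mice. STAT3 is activated by the interleukin-6 family and leptin. The log2 intensity of Stat3 was 12.98 to 13.77 in Ref mice (median 13.43), 12.79 to 13.16 in HFoleic mice (median 12.89) and 12.89 to 13.72 in HFepa mice (median 13.11). Ref mouse 7 was the only Ref mouse within the range of the HFoleic mice, and the HFepa mice spanned most of both ranges. Stat3 was lower by 0.50 ± 0.13 (SE) on the log2 scale in HFoleic vs. Ref (1.41-fold, adjusted p = 0.00617, limma). Both other probes of Stat3 were called in the same direction, at -0.36 (adjusted p = 0.0314) and -0.23 (adjusted p = 0.0417), where 30.8% of all probes were called. They were much dimmer, with a mean log2 intensity of 7.12 and 6.96 against 13.18 for the brightest. On slides 1, 2 and 3 the brightest probe differed by -0.62, -0.22 and -0.67.

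STAT6 is activated by interleukin-4 and interleukin-13 and is known for its role in the alternative activation of macrophages. The log2 intensity of Stat6 was 10.79 to 11.23 in Ref mice (median 10.96), 11.17 to 11.60 in HFoleic mice (median 11.38) and 11.06 to 11.54 in HFepa mice (median 11.25). The overlap of Ref and HFoleic mice was narrow, between 11.17 and 11.23. Stat6 was higher by 0.38 ± 0.09 (SE) on the log2 scale in HFoleic vs. Ref (1.30-fold, adjusted p = 0.00511, limma). The differences on slides 1, 2 and 3 were 0.36, 0.38 and 0.38, the most even of the 5 genes called.

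Stat5a and Stat5b, neighbouring genes whose products mediate the responses to growth hormone and prolactin, were not called. Both gave a difference of -0.05 in HFoleic vs. Ref, with a 95% confidence interval of -0.26 to 0.16 for Stat5a and of -0.22 to 0.12 for Stat5b. A dimmer probe of Stat5b gave -0.16 (adjusted p = 0.119). Stat3 and Stat5a lie tail to tail on opposite strands of chromosome 11, and a probe of Stat3 at chr11:100746462-100746521 (mm9, as given in the files) lies next to the brightest probe of Stat5a at chr11:100746373-100746432. The brightest probe of Stat3, at chr11:100749598-100749657, lies outside this stretch.

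The kinases differed little. Jak1, which serves most receptors of interleukins and interferons, had a log2 intensity of 12.19 to 12.55 in Ref mice (median 12.40), 12.23 to 12.76 in HFoleic mice (median 12.66) and 12.45 to 12.68 in HFepa mice (median 12.54). HFoleic mouse 1 was the only HFoleic mouse within the Ref range. The difference in Jak1 was 0.22 (95% confidence interval 0.04 to 0.39) and was just short of the threshold (adjusted p = 0.0515, limma). Without HFoleic mouse 1 it was 0.29 and was called (adjusted p = 0.00277), as it was without Ref mouse 2 (0.25, adjusted p = 0.0355) and under 7 of the 13 other settings of the analysis, and with other arrays left out adjusted p reached 0.123. Jak2, the kinase of the growth hormone, leptin and prolactin receptors, gave a difference of -0.01 (95% confidence interval -0.17 to 0.16) and its second probe 0.03.

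**Figure D2:**
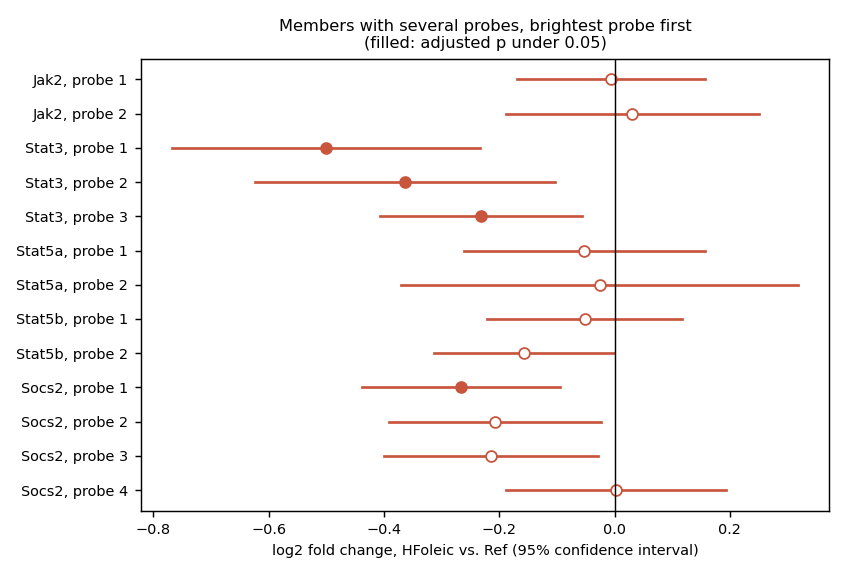
Log2 fold change of HFoleic vs. Ref (x axis) with its 95% confidence interval for each probe of the 5 members with several probes, ordered by brightness within a gene; filled points have an adjusted p under 0.05. All 3 probes of Stat3 are filled, and of the 4 probes of Socs2 only the brightest is.

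In HFepa compared to Ref mice none of the 10 genes was called by limma, where 2.46% of the gene names were. Unadjusted p was under 0.05 for 4 of them, Cish, Stat6, Socs1 and Jak1, and for 5522 of all 25,618 gene names. No member was called under the 13 other settings of the analysis. Cish was -1.31 ± 0.42 (SE) relative to Ref mice (95% confidence interval -2.19 to -0.44, adjusted p = 0.0904). On slides 1, 2 and 3 the difference in Cish was -1.56, -1.23 and -1.10. Stat6 was 0.29 ± 0.09 (SE) relative to Ref mice (adjusted p = 0.0785), Socs1 -0.37 ± 0.13 (adjusted p = 0.116) and Jak1 0.17 ± 0.08 (adjusted p = 0.212). The remaining members differed by -0.21 (Stat3) to 0.09 (Jak2). Leaving out a mouse changed the calls of 2 members: Cish was called without Ref mouse 7 (-1.68, adjusted p = 0.0203) or without HFepa mouse 8 (-1.50, adjusted p = 0.0478), and Stat6 was called without Ref mouse 7 (0.33, adjusted p = 0.0396) or without HFepa mouse 3 (0.32, adjusted p = 0.0370). With other mice left out adjusted p reached 0.189 for Cish and 0.162 for Stat6.

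Between the lineages on the high-fat diet, HFepa vs. HFoleic, none of the 10 genes was called by limma, and 0% of all gene names and 0.00254% of the probes were. Unadjusted p was under 0.05 for 2 of them, Stat3 and Socs2, and for 5331 of all 25,618 gene names. No member was called under the 13 other settings or with any array left out. Stat3 was 0.29 ± 0.12 (SE) relative to HFoleic mice (95% confidence interval 0.04 to 0.54, adjusted p = 0.183) and was positive on slides 1, 2 and 3 (0.24, 0.14 and 0.57). The dimmer probes of Stat3 gave 0.18 (95% confidence interval -0.07 to 0.42) and 0.12 (-0.04 to 0.29). Socs2 was 0.18 ± 0.08 (SE) relative to HFoleic mice (95% confidence interval 0.02 to 0.34, adjusted p = 0.196), its 3 dimmer probes gave 0.11, 0.09 and 0.04, and the mean of its probes 0.11. Cish gave 0.22 with a wide interval of -0.65 to 1.10, and its difference was 1.03 on slide 1, -0.51 on slide 2 and -0.34 on slide 3. For the other 7 genes the difference lay between -0.09 (Stat6) and 0.11 (Socs1). The comparisons of HFoleic and HFepa mice with Ref mice share the same 6 Ref arrays, and no test here sets 1 of these 2 comparisons against the other except HFepa vs. HFoleic itself.

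**Figure D3:**
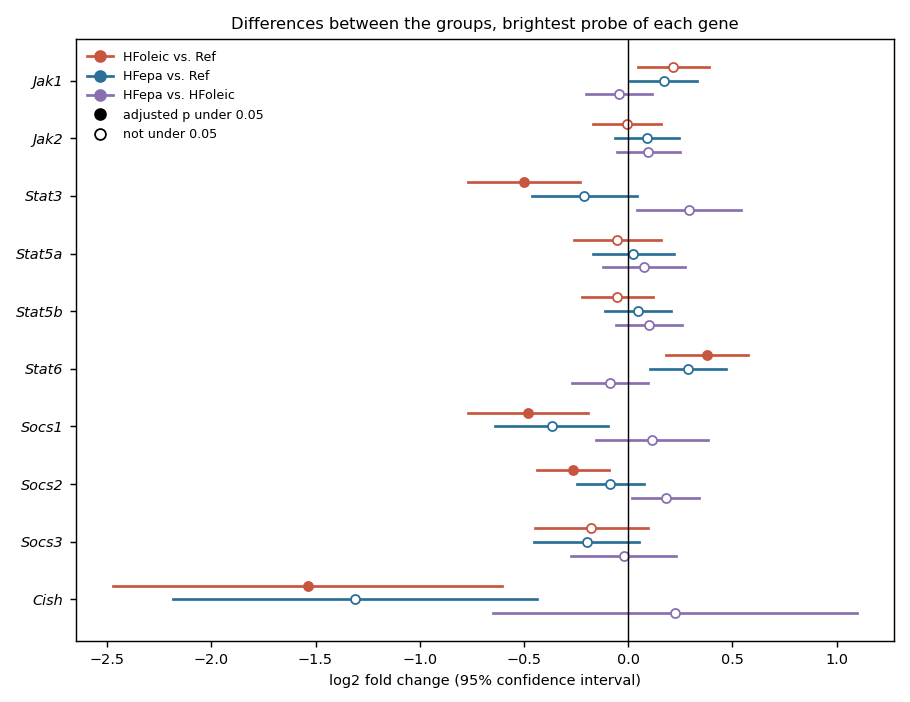
Log2 fold change (x axis) of each of the 10 genes in the 3 comparisons, with 95% confidence intervals; filled points have an adjusted p under 0.05. Filled points appear in HFoleic vs. Ref alone, for Stat3, Stat6, Socs1, Socs2 and Cish.

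Of 8 further JAK, STAT and SOCS genes 1 was higher and 1 lower in HFoleic vs. Ref (25% called, median 0.10, beside 31.8% called and a median of -0.04 over all gene names). Tyk2, the kinase shared by interferon and interleukin-12 receptors, was at 8.14 ± 0.25 (SD) in Ref and 8.71 ± 0.18 in HFoleic mice and rose by 0.57 (adjusted p = 0.00139), or by 0.27 with the mean of its probes. Socs7 was lower by 0.21 (adjusted p = 0.0435), and this call was lost when any 1 of Ref mice 3, 4, 5 and 6, HFoleic mice 4, 5, 6 and 8 and HFepa mouse 6 was left out, with adjusted p of up to 0.107. It was also lost with the processed signal, without a filter, with the compared groups only and with median centring (-0.16, adjusted p = 0.181). The differences in Jak3, Stat2, Stat4, Socs4, Socs5 and Socs6 lay between 0.01 and 0.15 and were not called, except for Stat2 without HFoleic mouse 4 (0.22, adjusted p = 0.0437, against up to 0.373 with other arrays left out). None of the 8 genes was called in HFepa vs. Ref or in HFepa vs. HFoleic, where 2.46% and 0% of all gene names were. Their median was 0.06 in HFepa vs. Ref and -0.01 in HFepa vs. HFoleic, beside -0.02 and 0.01 over all gene names.

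Of 32 ligands of these receptors, 22 were tested, and 5 were higher and 4 lower in HFoleic vs. Ref (40.9% called against 31.8% of all gene names, median 0.07). Probes of Csf2, Csf3, Epo, Gh, Ifnb1, Il10, Il23a, Il3, Il5 and Prl did not pass the filter on dim probes. Lep, the leptin of adipocytes, was at 8.46 ± 0.34 (SD) in Ref, 9.58 ± 0.41 in HFoleic and 9.15 ± 0.36 in HFepa mice, and was 1.13 higher in HFoleic than in Ref mice (adjusted p = 0.000741). Its difference in HFepa vs. Ref was 0.69 (adjusted p = 0.0552). Il7, a growth factor of lymphocytes, rose by 0.51 (adjusted p = 0.00223), or by 0.94 with the processed signal. Its probe was dim, with a log2 intensity of 5.57 to 5.91 in Ref and 5.98 to 6.52 in HFoleic mice, so that the size of its rise is uncertain.
Thpo, a growth factor of platelet precursors, had a log2 intensity that ranged from 8.87 to 9.86 in Ref, from 8.09 to 8.79 in HFoleic and from 8.27 to 8.89 in HFepa mice. The Ref and HFoleic mice did not overlap, and the difference was -0.90 (adjusted p = 0.000759). Cntf, a cytokine of the interleukin-6 family, ranged from 9.10 to 9.56 in Ref, from 8.28 to 9.08 in HFoleic and from 8.39 to 9.12 in HFepa mice, and was lower by 0.77 in HFoleic mice (adjusted p = 0.000686). Both genes were also lower in HFepa vs. Ref, Thpo by 0.60 (adjusted p = 0.0414) and Cntf by 0.52 (adjusted p = 0.0385). The call of Thpo was lost without any 1 of Ref mice 3 to 6, HFoleic mice 6 and 7 and HFepa mice 1, 2, 5, 6 and 7 (adjusted p of up to 0.105), and that of Cntf without any 1 of Ref mice 2 to 6 and HFepa mice 1, 5, 6 and 7 (adjusted p of up to 0.0845). Both were also lost with median centring, without a filter, with the slide as a block and with the compared groups only, and Thpo with the processed signal (adjusted p of up to 0.0788 for Thpo and 0.0585 for Cntf under these settings). With the replicate number as a block both were lost as well (adjusted p = 0.148 for Thpo and 0.114 for Cntf). With the mean of its probes Thpo gave -0.45 in HFoleic vs. Ref and -0.36 in HFepa vs. Ref. Il6 itself was not called (0.07, adjusted p = 0.735), and its difference was -0.97 (adjusted p = 0.351) when spots that the scanner software had marked were kept, with adjusted p of 0.340 to 0.786 over the settings. Il6 was also dim (log2 intensity 5.77 to 6.04 in HFoleic mice) and lacked a value among the Ref mice.

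All 32 receptors of the list were tested, and 12 were higher and 6 lower in HFoleic vs. Ref (56.2% called, median 0.20, where 31.8% of all gene names were called). Il7r, the receptor of interleukin-7, was at 8.71 to 9.67 in Ref, 10.70 to 12.86 in HFoleic and 9.64 to 13.21 in HFepa mice, and was 2.75 higher in HFoleic than in Ref mice (adjusted p = 0.00126). Il10rb, a chain of the interleukin-10 receptor, rose by 0.67 (adjusted p = 0.00184). Prlr, the prolactin receptor, had a log2 intensity of 10.30 to 10.90 in Ref, 9.36 to 9.87 in HFoleic and 9.50 to 10.49 in HFepa mice. Every HFoleic mouse was below every Ref mouse, and Prlr was lower by 0.92 in HFoleic mice (adjusted p = 0.000463). In HFepa vs. Ref its difference was -0.61 and was also called (adjusted p = 0.0303). The latter call was lost without any 1 of Ref mice 3 to 6 and HFepa mice 1, 5 and 6, with adjusted p of up to 0.0694, with the compared groups only (adjusted p = 0.0648) and with the mean of its probes (-0.46, adjusted p = 0.0512). It was also lost with the replicate number as a block (adjusted p = 0.105). Il15ra, which presents interleukin-15, was lower by 1.06 (adjusted p = 0.00114). Il4ra, the interleukin-4 receptor that activates STAT6, was lower by 0.43 (adjusted p = 0.0166).
Ghr, Lepr, Il6ra and Il6st, named by choice, were not called in HFoleic vs. Ref: the difference was -0.09 for Ghr, the growth hormone receptor, 0.20 for Lepr, the leptin receptor, -0.19 for Il6ra and -0.10 for its signalling partner Il6st. Over the settings the difference ranged from 0.04 to 0.31 for Lepr and from -0.12 to -0.0019 for Il6st. Ghr was called with the mean of its probes (-0.39, adjusted p = 0.0495), against adjusted p of up to 0.692 over the settings. In HFepa vs. Ref 1 of the 32 receptors (3.12%) and 2 of the 22 ligands (9.09%) were called, beside 2.46% of all gene names.

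**Figure D4:**
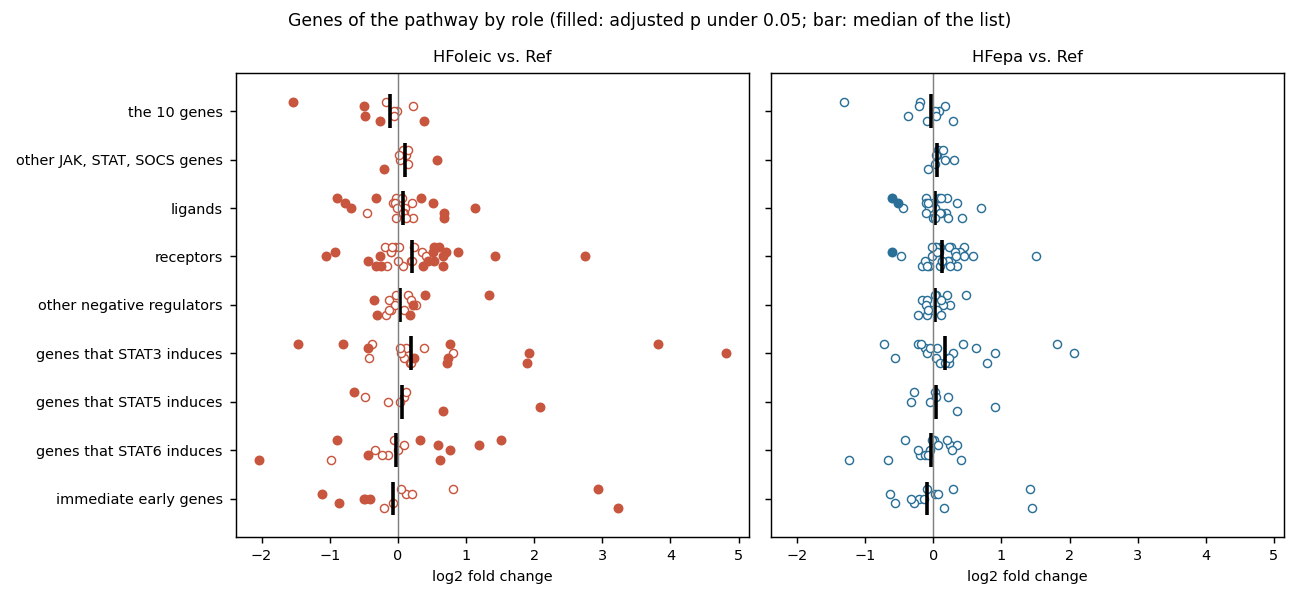
Log2 fold change (x axis) of every tested gene of the lists (y axis), in HFoleic vs. Ref on the left and HFepa vs. Ref on the right; points are genes, filled where adjusted p is under 0.05, and black bars are medians. The called genes of HFoleic vs. Ref lie on both sides of 0 in every list, and on the right the only filled points are Thpo, Cntf and Prlr.

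Inhibitors other than SOCS were 4 higher and 2 lower of 16 in HFoleic vs. Ref (37.5% called, 31.8% of all gene names, median 0.03). None of the 16 was called in HFepa vs. Ref, where 2.46% of all gene names were. Ptpn6, a phosphatase of blood cells that acts on JAK kinases, was at 8.92 ± 0.25 (SD) in Ref and 10.25 ± 0.56 in HFoleic mice and rose by 1.34 (adjusted p = 0.00484), or by 0.80 with the mean of its probes. Cbl, a ubiquitin ligase of activated receptors, rose by 0.40 (adjusted p = 0.0249), a call lost without Ref mouse 6, HFoleic mouse 4 or HFoleic mouse 6 (adjusted p of up to 0.0608). Without Ref mouse 6, 3 of the 16 genes were called. Cul5, a subunit of the ubiquitin ligase that SOCS proteins recruit, was lower by 0.35 (adjusted p = 0.00847), but its call was lost with the mean of its probes (-0.12, adjusted p = 0.261). Pias2, a SUMO ligase that binds STAT proteins, was lower by 0.30 (adjusted p = 0.0127).

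Genes that STAT3 is known to induce were 8 higher and 3 lower of 21 in HFoleic vs. Ref (52.4% called, median 0.19, with 31.8% over all gene names). Saa3, an acute-phase protein of fat and macrophages, was at 8.53 ± 0.79 (SD) in Ref, 13.34 ± 1.61 in HFoleic and 10.60 ± 2.12 in HFepa mice, and was 4.81 higher in HFoleic than in Ref mice (adjusted p = 0.000938). Il1rn, the antagonist of interleukin-1, rose by 3.82 (adjusted p = 0.000564) and Timp1, an inhibitor of matrix proteases, by 1.89 (adjusted p = 0.000644). Il1rn was dim in Ref mice (log2 intensity 4.84 to 5.69). Its rise was 6.36 with the processed signal and 2.47 with the mean of its probes, so that its size is uncertain. Cebpd, a transcription factor of adipocytes and of the acute phase, was lower by 1.46 (adjusted p = 0.00164), and its HFoleic and Ref mice did not overlap. The list is shared with other pathways, and Il4ra stands in it, among the receptors and among the STAT6 genes.
Of the 8 tested genes that STAT5 induces, 2 were higher and 1 lower (37.5% called, median 0.05, with 31.8% over all gene names). Igfals, which carries insulin-like growth factors in plasma, ranged from 6.64 to 8.12 in Ref and from 8.31 to 9.81 in HFoleic mice and rose by 2.08 (adjusted p = 0.000481). Il2ra rose by 0.66 (adjusted p = 0.00343), and Bcl2l1, an inhibitor of apoptosis, was lower by 0.64 (adjusted p = 0.00559). With the mean of the probes of a gene these were 0.25 for Il2ra and -0.38 for Bcl2l1.
Genes that STAT6 induces were 6 higher and 3 lower of 16 tested (56.2% called, median -0.02, with 31.8% over all gene names). Mrc1, the mannose receptor of alternatively activated macrophages, rose by 0.76 (adjusted p = 0.00335) and Tgm2, a transglutaminase, by 0.32 (adjusted p = 0.00210), while Klf4, a transcription factor, was lower by 0.89 (adjusted p = 0.00765). Irf4, a transcription factor of macrophages and adipocytes, ranged from 9.31 to 12.18 in Ref, from 8.19 to 8.90 in HFoleic and from 8.27 to 10.64 in HFepa mice and was lower by 2.04 in HFoleic than in Ref mice (adjusted p = 0.00153). None of the genes of these 3 lists was called in HFepa vs. Ref, where 2.46% of all gene names were.

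Because SOCS genes and Cish respond quickly to stimuli, immediate early genes were examined on the same arrays, and their part in the results was not tested. Of 13, 2 were higher and 4 lower in HFoleic vs. Ref (46.2% called, median -0.07, with 31.8% over all gene names). Atf3 and Egr2 rose by 2.94 (adjusted p = 0.00122) and 3.23 (adjusted p = 0.00120), and Ier3 and Ier2 were lower by 0.86 (adjusted p = 0.00214) and 0.50 (adjusted p = 0.0156). Their called members therefore lay on both sides.

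Lists of cell type markers were read against the 31.8% of all gene names called in HFoleic vs. Ref. Of 9 macrophage markers, all well above background on the 20 arrays, 7 were higher in HFoleic vs. Ref, among them Adgre1 by 2.27 (adjusted p = 0.00110), Cd68 by 2.41 (adjusted p = 0.00158) and the brightest, Lyz2, by 1.60 (adjusted p = 0.00108). Their summed intensity was 64,837 to 99,295 in Ref mice (median 95,908), 156,840 to 325,733 in HFoleic mice (median 261,448) and 71,212 to 327,176 in HFepa mice (median 115,675). None of the Ref mice reached the HFoleic range. All 20 arrays measured the 8 adipocyte markers well above background, and 4 of these genes were lower in HFoleic vs. Ref, among them Lipe, the hormone-sensitive lipase, by 1.19 (adjusted p = 0.000517), and the summed intensity of the list, led by Fabp4, had a median of 1,865,200 in Ref, 1,560,300 in HFoleic and 1,784,220 in HFepa mice. Of 7 markers of progenitors and fibroblasts 3 were higher, led by Col3a1 (1.37, adjusted p = 0.000820), of 4 NK cell markers 3 were higher (Klrd1, 0.55, adjusted p = 0.0150), though one of these, Klre1, was well above background on 1 of 6 Ref and 5 of 6 HFoleic arrays, and of 7 T cell markers 1 was (Cd2, 0.52, adjusted p = 0.0317). The part of these cells in the differences of Stat6, Stat3 and the SOCS genes was not tested.
Of 6 endothelial, 5 mesothelial, 4 B cell and 3 tested epididymis markers none was called, of 6 neutrophil markers S100a8 was higher and Csf3r lower, of 5 mast cell markers Kit was lower, and of 4 tested testis markers Tnp2 was lower. The median difference in HFoleic vs. Ref was 0.15 for the progenitor and fibroblast list, 0.25 for NK cells and -0.01 for T cells, and -0.40 for the mesothelial, mast cell and epididymis lists and -0.42 for the testis list. Crisp1, Lcn5 and Lcn8 of the epididymis and Odf1 and Akap4 of the testis did not pass the filter. The mean log2 level of the testis list was above 8 in 4 mice, at 8.27 and 8.41 in Ref mice 3 and 6, 9.06 in HFoleic mouse 5 and 8.10 in HFepa mouse 4. That of the 3 epididymis markers was above 8 in Ref mouse 3 (8.73) and HFepa mouse 2 (9.04), and the call of each of the 5 members in HFoleic vs. Ref held with any 1 of these mice left out.

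**Figure D5:**
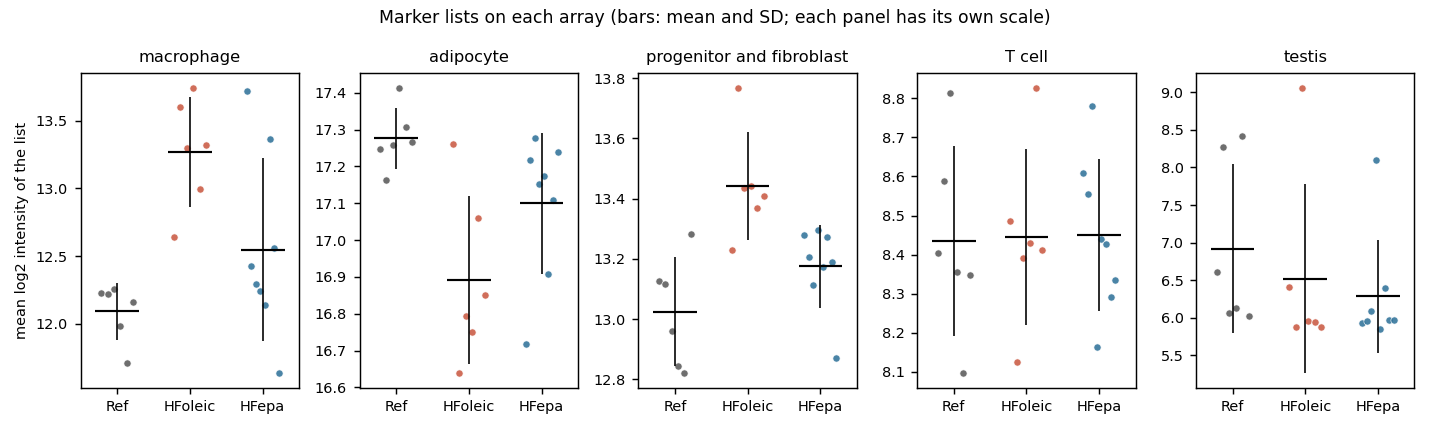
Mean log2 intensity (y axis) over the tested markers of 5 lists, by group (x axis); points are mice, horizontal bars means and vertical bars SD, and each panel has its own scale. The macrophage list lies between 11.71 and 12.25 in Ref mice and between 12.64 and 13.74 in HFoleic mice, and 4 mice stand apart in the testis list.

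The genes whose signal varied most like that of Cish over the 20 arrays were sought among 25,608 gene names, as a description without a test, since the arrays share the group differences. Lrig3, a membrane protein with leucine-rich repeats and immunoglobulin-like domains, had a Pearson r of 0.81 and a Spearman rho of 0.72, and differed from Ref mice by -1.16 in HFoleic (adjusted p = 0.000482) and by -0.86 in HFepa mice (adjusted p = 0.0243). The closest was the transcript A430085C19 (r = 0.86, rho = 0.81), at -0.72 in HFoleic vs. Ref (adjusted p = 0.00568). The transcript B230340J04Rik, a transcript without a gene symbol in the files and 4732419C18Rik followed in this order (each r = 0.78), with differences of -0.46, -1.10 and -0.44 in HFoleic vs. Ref.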

How the data were processed

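RNA of 20 mice, labelled with Cy3, was measured on SurePrint G3 mouse arrays of Agilent. Per the file headers, intensities were extracted by the authors with Agilent Feature Extraction 10.10.1.1, and the median intensities are linear and not normalized. A table of log2 values (38,168 probes), deposited after a filter and quantile normalization by the authors, was used as an alternative. It correlated with the log2 median intensity of the same array at r of 0.9997 or more.

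Values were computed with R 4.3.3, limma 3.58.1 and the data.table package (version 1.17.8), and plots with matplotlib 3.10.9. Control spots were left out, and spots marked as outliers were set to missing, which left 24 missing values among the tested probes. Probes well above background on at least 6 arrays were tested (39,390), after log2, quantile normalization and averaging of repeated spots. No spot was saturated, and the share of spots well above background was 66.1% to 71.9%. The precision is limited by the number of mice. A gene was represented by its brightest probe. Marker lists were summed or averaged over these probes per array, and their brightest gene is that of the brightest probe, which depends on the probe as well as on the RNA. All 20 arrays were fitted together in lmFit with the group as the only factor, contrasts were tested with eBayes, and p-values were adjusted with Benjamini–Hochberg over all probes. Arrays of a group correlated at 0.977 to 0.996 and none was a repeat of another. The labels do not say whether replicate numbers pair the mice.

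The steps were tested on simulated data. The 10 genes and all lists were chosen with earlier results of these data known. Of the listed genes 2 are not reported here and were left out of the counts of their lists. The genes named were the other JAK, STAT and SOCS genes, up to 4 called genes of each pathway list with the smallest adjusted p, listed genes called in another comparison, Lep, Il6, Il6ra, Il6st, Il4ra, Ghr and Lepr, the brightest marker of a list and the 5 genes most like Cish. Other markers were named after their values were seen. The design text gives 8 mice per group, of which those with intact RNA had arrays. Alternatives were the processed signal, normexp (offset 50), median centring, the authors' log2 values, other filters, marked spots kept, the slide and the replicate number as blocks, array weights, robust eBayes, the compared groups only, gene means over probes, and each array left out. The slide and the scan time coincide. The probe positions of the files are on mm9.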

Additional observations from a re-analysis of the deposited data

Results flagged for a closer look

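In 3 of the 30 sets of values of 1 gene in 1 group, a single mouse stood far from the others by Dixon's 95% criterion, which chance meets in about 1 in 20 groups. Jak1 was at 12.23 in HFoleic mouse 1, with the nearest of the other HFoleic mice at 12.58. Stat5a was at 12.14 in HFepa mouse 8, with the nearest at 11.77. Socs2 was at 9.64 in HFepa mouse 5, with the nearest at 9.43.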

How the results depend on the processing

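Among the 10 genes, the 5 calls of HFoleic vs. Ref held in all leave-one-out analyses (5 to 6 genes called). With the replicate block 3 remained called and 7873 probes were called (12147 without it), and the calls of Cish (-1.45, adjusted p = 0.0783, range over settings 0.00337 to 0.0783) and Socs2 (-0.28, adjusted p = 0.0850, range 0.00625 to 0.0850) were lost. Outside the 10 genes, Il4ra, Ier2, Klf4 and Pias2 in HFoleic vs. Ref and Cntf, Prlr and Thpo in HFepa vs. Ref lost their calls with it. The genes called in HFoleic vs. Ref fell with it from 9 to 5 for those that STAT6 induces, from 6 to 3 for immediate early genes and from 6 to 3 for other negative regulators. The labels do not say whether the numbers pair the mice, and correlations over all probes cannot settle it. Deviations of 16 same-numbered pairs correlated at -0.587 to 0.559, and 2 of 20 mice correlated best with their own number. Jak1 in HFoleic vs. Ref was called under 7 of 13 settings (adjusted p 0.0131 to 0.133). In HFepa vs. Ref 0 to 2 members were called with 1 array left out. The count of probes called there was 892, but 575 with median centring, 583 without a filter, 25 with the replicate block, 1454 with array weights, 140 with the compared groups only, and 131 to 2518 with 1 array left out. In HFepa vs. HFoleic it was 1, but 0 with the processed signal, normexp, median centring, the replicate block or the compared groups only, 1297 when the slide was a block, 4304 with array weights, and 0 to 2851 with 1 array left out (2851 without HFepa mouse 1, 1664 without HFoleic mouse 1). The cause was not tested.

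Reversals concerned differences that were uncalled and near 0 in the main analysis. Il6 alone moved far from 0 under some settings. Ranges are those with 1 array left out. In HFoleic vs. Ref Jak2 was 0.00296 with the processed signal, 0.0464 with median centring, 0.000855 with the replicate block and 0.0122 with the mean of probes (range -0.0474 to 0.0307). Stat5a was 0.00305 (range -0.104 to 0.00230) and Stat5b 0.00384 with median centring. Il6 was -0.0601 with median centring, -0.976 with the authors' values and -0.972 with marked spots kept (range -0.0127 to 0.156). Socs5 was -0.0119 when the slide was a block (range -0.0206 to 0.0828). Stat4 was -0.0388 with median centring, -0.0266 when the slide was a block, -0.00102 with the replicate block and -0.0454 with array weights (range -0.0508 to 0.0895). In HFepa vs. Ref Stat5a was -0.0380 with the replicate block (range -0.0402 to 0.0783), and Stat5b -0.0400 with the mean of probes. In HFepa vs. HFoleic Socs3 was 0.00139 when the slide was a block (range -0.0548 to 0.0222). No scaling moved the median of all genes by over 0.1. The number of mice limits what small differences could be called.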
